A study of Mus musculus with 4 samples.

Results

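The genes described here encode the proteins that take up glucose, run glycolysis, pass pyruvate to lactate or to the mitochondria, store glycogen and run the pentose phosphate pathway. The 43 genes were taken by symbol from a table of 28987 genes, and each was found once. RNA was sequenced from c-Kit-positive bone marrow cells, a fraction enriched for haematopoietic stem and progenitor cells with CD117 magnetic beads, of C57BL/6 mice whose age the labels do not give. All 4 libraries carried the Mll partial tandem duplication on 1 allele (MllPTD/WT), both Runx1 alleles floxed, and Mx1-Cre, a recombinase driven by an interferon-inducible promoter that is also active outside the blood lineages. For the 2 Hif1a-intact libraries the labels name no floxed Hif1a, and the 2 libraries labelled Hif1a-null had both Hif1a alleles floxed as well. No library with wild-type Mll or Runx1 was analysed here, so the comparison is of Hif1a status within the double mutant. Whether both libraries of a group stem from different mice is not stated in the labels, so the p-values reflect the spread among these samples alone, and that spread may be technical.

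Glycolysis splits glucose into pyruvate in the cytosol, and most of its steps can be run by several isoenzymes that different tissues use in different proportions. HIF-1, the factor whose oxygen-regulated subunit Hif1a encodes, is known for raising many of these genes when oxygen is low, and for raising the kinases that keep pyruvate out of the mitochondria. Stem cells of the marrow are known for their reliance on glycolysis, maturing neutrophils for glycogen and pentose phosphate use, and red cells, which lose their mitochondria, for a set of isoenzymes of their own. Values are TPM, a share of all transcripts scaled for transcript length, so levels of different genes can be compared. They carry no record of depth, which is unknown.

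Hif1a itself read 100.3 and 75.2 TPM in the Hif1a-intact and 98.8 and 113 TPM in the Hif1a-null libraries, so the gene-level value does not check the deletion and directions rest on the labels. Runx1, floxed in all libraries, read 73.6 and 76.6 TPM against 48.4 and 46.7 TPM (limma, adjusted p = 0.0636). The part of Runx1 in the differences below cannot be told apart from that of Hif1a status. Kit, the selected receptor, read 102 to 128 TPM in the 4 libraries, and Cd34 179 to 251 TPM. Summed, the 43 genes held 0.566% and 0.631% of all TPM in the Hif1a-intact pair, against 0.520% and 0.557%.

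Most genes of sugar metabolism showed no difference that passed the test, and those that did pass were 2 isoenzymes that were higher and 1 enzyme that was lower in the Hif1a-null libraries. Pklr, the pyruvate kinase of red cells and liver, and Pfkm, the muscle-type phosphofructokinase, rose. Pgam1, the phosphoglycerate mutase of most tissues, fell. The test was limma on log2(TPM + 1), with Benjamini-Hochberg adjustment over 11909 genes and a threshold of 0.05. Of the 43 genes, 41 had at least 1 TPM in at least 2 libraries and were tested, none of them by virtue of 1 group only. Of these, 2 were called higher, where 5.25% of all genes tested were, and 1 lower, where 2.02% of all were, and 38 did not pass. The 3 calls are 7.32% of the genes tested here, beside 7.27% of all genes. The groups did not overlap for 13 genes that were higher and 17 that were lower in the Hif1a-null libraries, which is 31.7% and 41.5% of those tested, where 22.7% and 32.3% of all tested genes did so. An unadjusted p under 0.05 was reached by 9 genes, 5 higher and 4 lower, and by 23.2% of all genes tested. The median log2 fold change (Hif1a-null minus Hif1a-intact) was -0.16, against -0.06 over all genes tested. Eno2, the neuronal enolase, and Pdk4, a pyruvate dehydrogenase kinase, were too low to test, at 0.201 to 0.956 TPM and 0.0864 to 0.127 TPM.

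**Figure D1:**
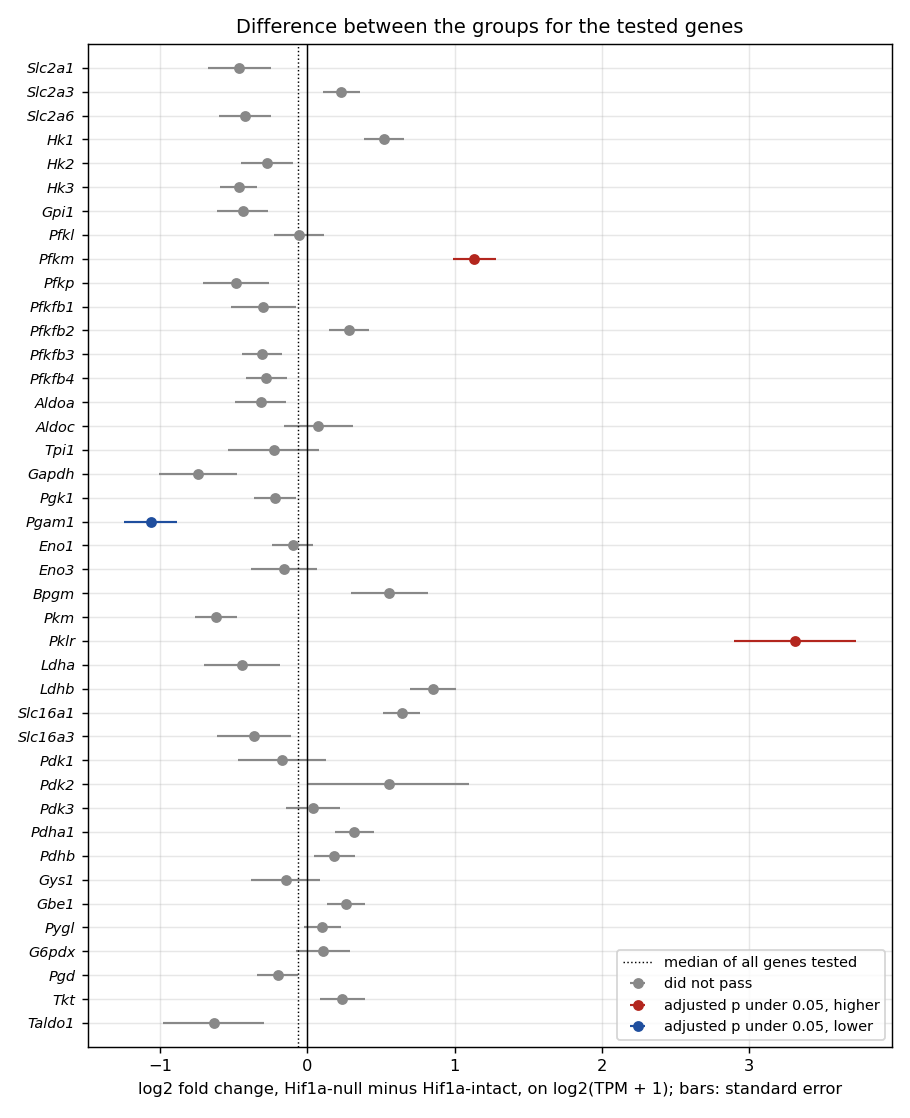
Log2 fold change of the 41 tested genes (x axis, Hif1a-null minus Hif1a-intact on log2(TPM + 1), bars give the standard error), ordered by pathway step. Pklr at 3.32 and Pfkm at 1.13 (red) passed as higher and Pgam1 at -1.07 (blue) as lower, while the other 38 (grey) did not pass.

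The promoters of the 3 called genes, and those of Ldha and Pgk1 as well-studied HIF-1 targets, are shown because they differ in the short motifs they hold. Each line gives the 250 bases before a RefSeq transcription start (RefSeq, GRCm38.p6, plus strand). For Pklr, Pfkm and Ldha, which have more than 1 start, the most upstream is shown. Capitals mark matches on either strand to the HIF core motif, which was searched as ACGTG and as GCGTG. They also mark matches to a GATA motif, which reads A or T, then GATA, then A or G. A CACGTG is counted on both strands, as 2 overlapping matches. The GATA motif was added after the values were seen. The windows lie at chr3:89135892-89136141 for Pklr, chr15:98092339-98092588 for Pfkm, chr19:41911621-41911870 for Pgam1, chr7:46845554-46845803 for Ldha and chrX:106186850-106187099 for Pgk1, and no annotated exon of GENCODE M21 overlaps them.
Pklr: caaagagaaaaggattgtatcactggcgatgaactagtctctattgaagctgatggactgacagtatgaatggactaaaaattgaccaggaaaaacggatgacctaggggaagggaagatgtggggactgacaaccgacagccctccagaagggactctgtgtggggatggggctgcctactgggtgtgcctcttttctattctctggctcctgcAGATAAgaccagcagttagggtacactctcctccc
Pfkm: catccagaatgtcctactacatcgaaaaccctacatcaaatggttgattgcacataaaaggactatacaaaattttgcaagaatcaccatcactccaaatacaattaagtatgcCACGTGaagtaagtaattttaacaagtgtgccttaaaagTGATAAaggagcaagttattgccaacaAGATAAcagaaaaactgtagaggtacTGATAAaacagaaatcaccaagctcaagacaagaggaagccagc
Pgam1: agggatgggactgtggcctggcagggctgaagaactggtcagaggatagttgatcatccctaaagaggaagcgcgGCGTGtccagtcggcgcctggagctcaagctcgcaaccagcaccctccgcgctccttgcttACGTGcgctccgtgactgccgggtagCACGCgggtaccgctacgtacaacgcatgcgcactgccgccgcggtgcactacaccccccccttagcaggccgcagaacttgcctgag
Ldha: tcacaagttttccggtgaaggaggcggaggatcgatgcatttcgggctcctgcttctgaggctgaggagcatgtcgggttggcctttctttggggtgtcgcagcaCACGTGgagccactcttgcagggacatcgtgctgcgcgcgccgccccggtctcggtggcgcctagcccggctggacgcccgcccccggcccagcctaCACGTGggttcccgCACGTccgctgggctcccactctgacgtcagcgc
Pgk1: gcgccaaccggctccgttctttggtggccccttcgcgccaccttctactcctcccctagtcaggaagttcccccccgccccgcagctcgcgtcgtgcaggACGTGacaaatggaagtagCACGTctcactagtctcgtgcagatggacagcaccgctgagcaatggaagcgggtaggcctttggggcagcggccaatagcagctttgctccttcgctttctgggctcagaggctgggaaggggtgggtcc

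The Pklr window held no HIF core match and 1 GATA match, at position -35 from the start. As background, this upstream start is the one that red cells use, while the liver starts further downstream, and a gene-level TPM does not separate them. The Pfkm window held 3 GATA matches, at -97, -70 and -44, and a CACGTG that gives 2 HIF core matches. Its further windows held fewer GATA matches, and the one beginning at 98111810 held 0 matches of either kind. Pgam1 held 3 HIF core matches, at -175, -114 and -88, and no GATA match. Ldha held 5 HIF core matches and Pgk1 held 2, with no GATA match in either. The further window of Pklr held 0 matches of either kind, and that of Ldha held 1 HIF core match and no GATA match.

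Over the 42 genes with an entry in the promoter table, all but Slc2a3, 35 (83.3%) held a HIF core match before at least 1 of their starts, beside 41.5% of all 27025 genes. By window the shares were 71.4% of 63 and 38.6% of 32851. The windows of these genes were also richer in G and C (median 59.2% against 52.4%) and in CG pairs, which the motif contains (median 13 against 6 per window), and the part of base composition in the share was not tested. A GATA match was held by 26.2% of these genes and 29.7% of all. The 34 tested genes with a HIF core match had a median log2 fold change of -0.19, and the 6 tested genes without one of 0.06, with ranges that overlapped (-1.07 to 1.13 and -0.44 to 3.32). A match is a run of letters and not a measured binding site.

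Pyruvate kinase makes pyruvate and ATP in the last step of glycolysis. Pklr (ENSMUSG00000041237, GRCm38 chromosome 3, 89136142 to 89146784, plus strand) read 2.15 and 0.421 TPM in the Hif1a-intact pair and 19.9 and 20.2 TPM in the Hif1a-null pair. The 2 groups lay far apart, although the Hif1a-intact libraries also differed from each other. This came to a log2 fold change of 3.32 (standard error 0.41, limma, adjusted p = 0.0254). The call was lost with no filter (adjusted p = 0.0778), with a pseudocount of 0.1 (adjusted p = 0.0754) and without either Hif1a-null library (adjusted p = 0.1502 and 0.186), when 19 and 0 of all genes passed. Its fold change was 2.74 to 4.22 over the 14 alternatives.

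Pkm, which encodes the pyruvate kinases of most other tissues, was far more abundant, at 360 and 418 TPM in the Hif1a-intact and 253 and 250.3 TPM in the Hif1a-null libraries. It was lower in both Hif1a-null libraries, but the difference did not pass (log2 fold change -0.62, standard error 0.14, limma, adjusted p = 0.0939). A gene-level value does not separate the M1 and M2 forms of Pkm. Pklr made up 0.593% and 0.101% of the summed pyruvate kinase TPM in the Hif1a-intact pair and 7.31% and 7.47% in the Hif1a-null libraries. Pkm thus remained the main pyruvate kinase transcript in every library.

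Phosphofructokinase commits sugar to glycolysis, and its muscle (Pfkm), liver (Pfkl) and platelet (Pfkp) subunits form mixed tetramers. Pfkm (ENSMUSG00000033065, chromosome 15, 98092589 to 98132451, plus strand) read 6.80 and 5.66 TPM in the Hif1a-intact pair and 14.7 and 15.0 TPM in the Hif1a-null pair. Both pairs were tight and well apart, with a log2 fold change of 1.13 and a standard error of 0.15 (limma, adjusted p = 0.0267). The call was lost without Hif1a-null replicate 1 (adjusted p = 0.313) or replicate 2 (adjusted p = 0.376) and was kept under the other 12 alternatives, with fold changes of 1.02 to 1.25 over all 14. Pfkp, the most abundant of the 3, read 35.1 and 51.9 against 31.0 and 29.4 TPM (log2 fold change -0.49, adjusted p = 0.301). Pfkl overlapped between groups, at 8.29 to 10.7 TPM. The share of Pfkm in the summed phosphofructokinase TPM was 13.2% and 8.37% in the Hif1a-intact and 26% and 28.4% in the Hif1a-null libraries, while Pfkp held 68.1% and 76.7% against 55.0% and 55.8%.

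Hexokinases trap glucose in the cell by phosphorylating it. Hk3, the hexokinase of myeloid cells, was the most abundant, at 178 and 170.1 TPM in the Hif1a-intact and 125 and 126 TPM in the Hif1a-null libraries, and was lower in both of the latter (log2 fold change -0.47, standard error 0.12, limma, adjusted p = 0.124). Hk1, the main hexokinase of red cells and brain, went the other way, at 46.5 and 51.9 against 72.0 and 69.7 TPM (log2 fold change 0.52, standard error 0.13, limma, adjusted p = 0.119). Neither passed. Hk2, the inducible muscle and fat form, read 58.2 and 68.0 against 57.8 and 46.5 TPM, with groups that only just failed to meet. The share of Hk1 in hexokinase TPM was 16.5% and 17.9% against 28.3% and 28.8%. Gpi1, which turns glucose 6-phosphate into fructose 6-phosphate, was among the most abundant genes here, at 601 and 753 against 472 and 520 TPM (log2 fold change -0.44, adjusted p = 0.235).

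At 5 steps, picked after their values were seen, the proportions of isoenzymes within each library differed between the groups without overlap. The ratio of Pkm to Pklr was 168 and 992 in the Hif1a-intact and 12.7 and 12.4 in the Hif1a-null pair, and that of Ldha to Ldhb was 8.63 and 11.4 against 3.90 and 4.01. Hk3 to Hk1 stood at 3.82 and 3.28 against 1.73 and 1.80, and Pfkp to Pfkm at 5.17 and 9.16 against 2.11 and 1.97. The ratio of the lactate carriers Slc16a1 to Slc16a3 was 3.18 and 2.06 against 5.22 and 5.45. Scaling a whole library does not move such ratios. They are given as a description with no test, since they were picked after their values were seen.

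**Figure D2:**
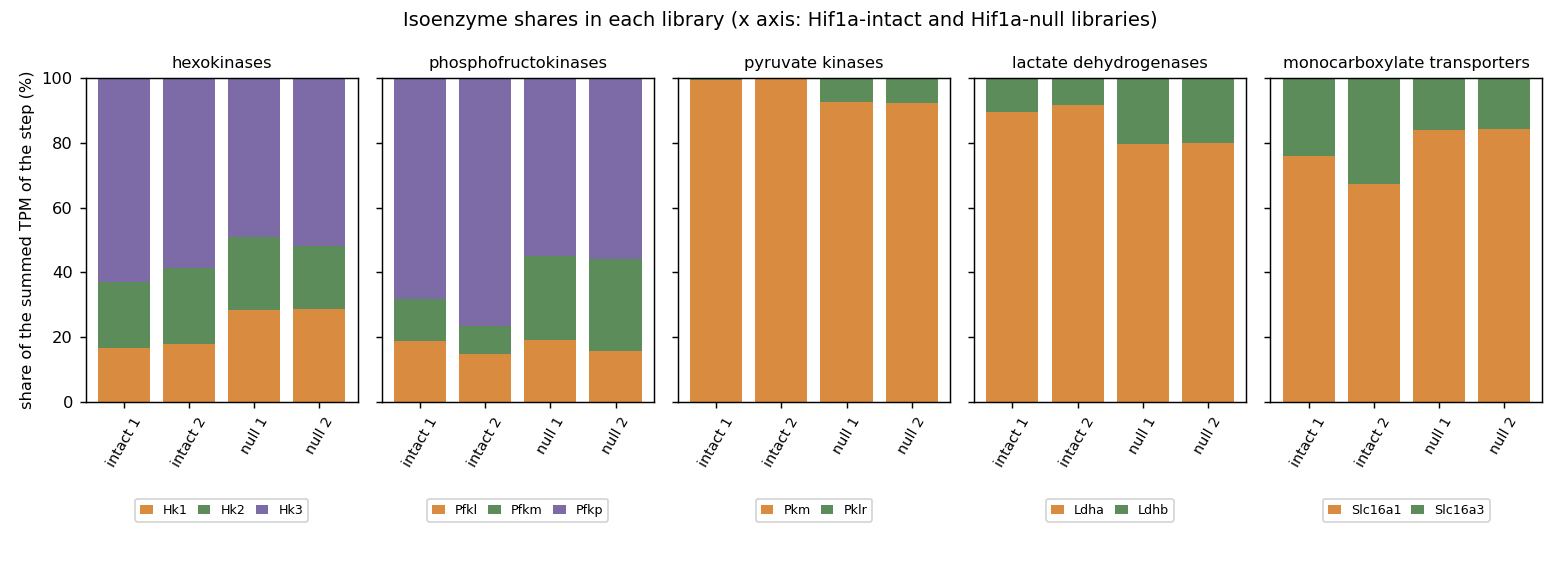
Share of each isoenzyme in the summed TPM of its step (y axis, percent) in the 4 libraries (x axis), for hexokinases, phosphofructokinases, pyruvate kinases, lactate dehydrogenases and monocarboxylate transporters. Hk1, Pfkm, Pklr, Ldhb and Slc16a1 took a larger share in both Hif1a-null libraries than in either Hif1a-intact library.

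Of the enzymes from aldolase to enolase, Pgam1 fell, and the others did not pass. Pgam1 (ENSMUSG00000011752, chromosome 19, 41911923 to 41918660, plus strand), which moves the phosphate on 3-phosphoglycerate, read 77.9 and 77.8 TPM in the Hif1a-intact and 32.1 and 41.9 TPM in the Hif1a-null libraries. The groups were well apart, with a log2 fold change of -1.07 and a standard error of 0.18 (limma, adjusted p = 0.0467). That call lay just under the threshold, was kept in 3 of 14 alternatives and reached an adjusted p of 0.437 without Hif1a-null replicate 1, while the direction held in all 14. Its processed pseudogene Pgam1-ps2 on chromosome 7 (27469771 to 27470535) matched it over 765 bases at 100% identity and read 57.1 and 129 against 36.7 and 33.1 TPM. Summed with its copies, Pgam1 read 136 and 208 against 69.2 and 75.0 TPM, and this difference did not pass (log2 fold change -1.21, limma, adjusted p = 0.0733). The Pgam1 row held 47.1% of the joint TPM.

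Gapdh, which oxidises glyceraldehyde 3-phosphate and is often used as a reference gene, shared most of its TPM with pseudogenes. It read 22.2 and 13.4 TPM in the Hif1a-intact and 9.92 and 9.96 TPM in the Hif1a-null libraries, far below its neighbours in the pathway. A total of 50 annotated copies elsewhere in the genome met the criteria of likeness, and the processed pseudogene Gm13394 on chromosome 2 alone was assigned 372, 199, 192 and 148 TPM in the same order, at 99.9% identity over 1000 bases. The Gapdh row held 5.23% of the joint TPM. Summed, Gapdh and its copies read 419 and 243 against 219 and 180.2 TPM (log2 fold change -0.68, standard error 0.31, limma, adjusted p = 0.294). Gapdh on its own row passed as lower only without Hif1a-intact replicate 2 (log2 fold change -1.09, adjusted p = 0.0442).

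Pgk1, the phosphoglycerate kinase, showed a like split. Its row read 39.7 and 35.0 against 33.2 and 30.4 TPM. It held 20.7% of the TPM that it shared with the processed pseudogenes Pgk1-rs7 and Gm5537. The sums were 188 and 151 against 172 and 158 TPM, and they overlapped (log2 fold change -0.03, limma, adjusted p = 0.933). Eno1, by contrast, held 97.7% of its joint TPM and was high everywhere, at 697 and 791 against 675 and 709 TPM. The muscle enolase Eno3 overlapped at 4.69 to 7.31 TPM.

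**Figure D3:**
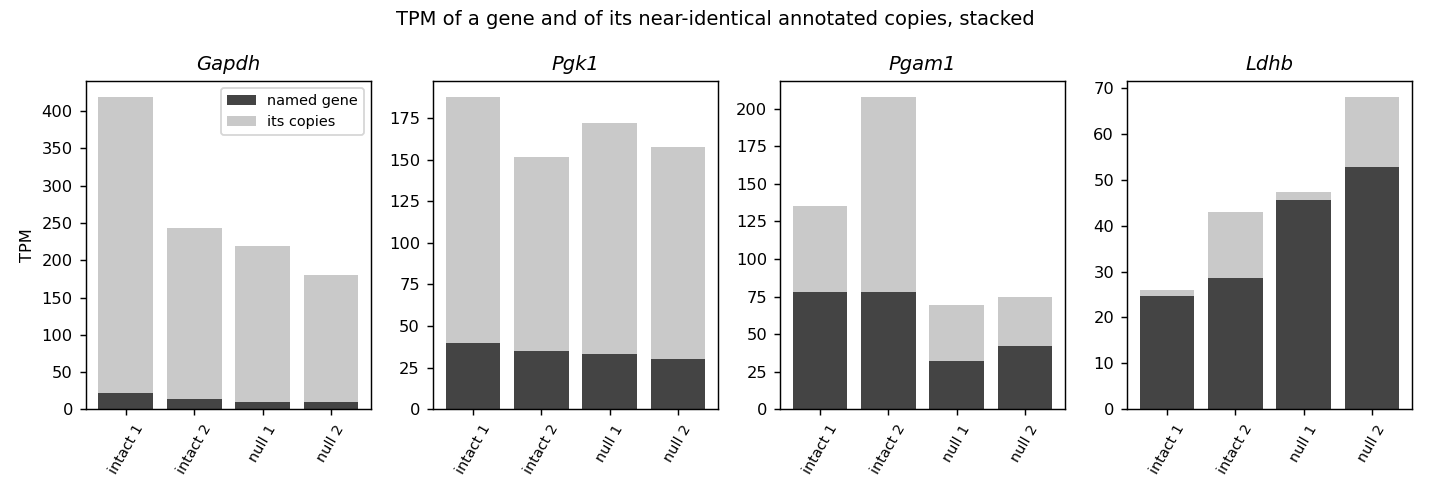
TPM (y axis) of Gapdh, Pgk1, Pgam1 and Ldhb (dark) and of their near-identical annotated copies (light), stacked, in the 4 libraries (x axis). Most of the TPM of Gapdh and Pgk1 was assigned to copies, and the Pgam1 sum was lower in both Hif1a-null libraries than in either Hif1a-intact library.

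Aldoa, which splits fructose 1,6-bisphosphate, read 353 and 278 against 259 and 243 TPM (log2 fold change -0.32, adjusted p = 0.368), and its brain form Aldoc 1.87 to 3.29 TPM over all libraries. Tpi1, which interconverts the triose phosphates, read 248 TPM in Hif1a-intact replicate 1 and 139 to 164 TPM in the other 3 libraries, so its groups overlapped. Bpgm, which makes the 2,3-bisphosphoglycerate that loosens oxygen from haemoglobin, read 4.81 and 3.06 against 5.17 and 7.28 TPM, higher in both Hif1a-null libraries by a small margin (log2 fold change 0.56, adjusted p = 0.303).

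In the lactate and pyruvate branch 0 of 9 tested genes passed, with 2, Ldhb and Slc16a1, at an unadjusted limma p under 0.05. Ldhb, the heart-type lactate dehydrogenase, read 24.7 and 28.6 against 45.4 and 52.7 TPM, both Hif1a-null libraries being higher (log2 fold change 0.85, standard error 0.16, limma, adjusted p = 0.0586). It passed with protein-coding genes only (adjusted p = 0.0415), and its direction held in all 14 alternatives. Ldha, the muscle-type form and a long-known HIF-1 target, read 213 and 326 against 177 and 211 TPM, with the lower Hif1a-intact and the higher Hif1a-null library nearly level (log2 fold change -0.44, adjusted p = 0.398). Ldhb made up 10.4% and 8.07% of the lactate dehydrogenase TPM in the Hif1a-intact and 20.4% and 19.9% in the Hif1a-null libraries.

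Slc16a1 encodes MCT1, a lactate and pyruvate carrier, and Slc16a3 encodes MCT4, the lactate exporter of strongly glycolytic cells and a HIF-1 target. Slc16a1 read 25.3 and 26.8 against 41.2 and 41.1 TPM, with little spread within either group (log2 fold change 0.64, standard error 0.12, limma, adjusted p = 0.0655). Slc16a3 read 7.96 and 13 against 7.88 and 7.54 TPM (log2 fold change -0.36, adjusted p = 0.477). The 2 carriers thus leaned in opposite directions, and neither passed.

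Pyruvate dehydrogenase kinases switch off the entry of pyruvate into the mitochondria, and Pdk1 is a HIF-1 target. Pdk1 read 72.1 and 41.4 against 46.2 and 50.6 TPM. The groups overlapped, because the 2 Hif1a-intact libraries lay on either side of the Hif1a-null pair, and the log2 fold change of -0.17 (adjusted p = 0.788) turned to 0.22 without Hif1a-intact replicate 1. Pdk3 was as abundant, at 44.7 to 56.2 TPM over all libraries, and Pdk2 read 1.55 to 6.70 TPM, and both overlapped. The dehydrogenase subunits Pdha1 (66.2 and 59.4 against 77.1 and 79.9 TPM) and Pdhb (137 and 119.9 against 145 and 146 TPM) were higher in both Hif1a-null libraries without passing (adjusted p = 0.261 and 0.515).

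The most abundant of the 3 glucose carriers was Slc2a3, which encodes GLUT3, at 57.4 and 56.2 against 65.4 and 68.2 TPM (log2 fold change 0.23, adjusted p = 0.362). Slc2a1, which encodes GLUT1 and is a HIF-1 target, read 15.7 and 22.7 against 13.2 and 13.7 TPM (log2 fold change -0.46, adjusted p = 0.295), and Slc2a6 9.27 and 7.36 against 6.45 and 5.41 TPM. The groups did not overlap for any of the 3, as was so for 55% of all genes tested. By limma 0 of the 3 passed, and 0 had an unadjusted p under 0.05. Slc2a3 made up 69.7% and 65.2% of the summed TPM of these carriers in the Hif1a-intact and 76.9% and 78.1% in the Hif1a-null libraries.

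The PFKFB enzymes set the level of fructose 2,6-bisphosphate, the main activator of phosphofructokinase, and Pfkfb3 and Pfkfb4 are HIF-1 targets. Pfkfb4, the most abundant, read 29.1 and 33.6 against 25.98 and 25.1 TPM (log2 fold change -0.28, adjusted p = 0.334), and Pfkfb3 read 21.3 and 23.8 against 18.3 and 17.6 TPM (log2 fold change -0.31, adjusted p = 0.273). Pfkfb2 leaned the other way, at 7.15 and 6.37 against 8.87 and 8.01 TPM, and Pfkfb1 overlapped at 1.98 to 3.58 TPM. By limma 0 of the 4 passed, and 0 had an unadjusted p under 0.05.

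Glycogen genes were high and differed little. Pygl, the phosphorylase that releases glucose 1-phosphate from glycogen, read 186 and 180.5 against 192 and 201 TPM (log2 fold change 0.10, adjusted p = 0.691). The branching enzyme Gbe1 read 122 and 130.4 against 148 and 154 TPM (log2 fold change 0.26, adjusted p = 0.324), and the synthase Gys1 overlapped at 37.3 to 55.3 TPM.

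The pentose phosphate pathway makes NADPH and ribose, and its transketolase gene Tkt was the most abundant of all 43, at 1001 and 1035 against 1097 and 1311 TPM (log2 fold change 0.24, standard error 0.15, limma, adjusted p = 0.439). Taldo1, the transaldolase, read 334 and 633 against 283 and 308 TPM, a wide gap within the Hif1a-intact pair (log2 fold change -0.64, standard error 0.34, adjusted p = 0.362). It passed without Hif1a-intact replicate 1 (log2 fold change -1.10, adjusted p = 0.0433) and read -0.18 without replicate 2. Pgd, the 6-phosphogluconate dehydrogenase, read 179 and 203 against 170 and 162 TPM (adjusted p = 0.470). G6pdx, the entry enzyme, overlapped at 79.4 to 105 TPM, and its locus overlaps Ikbkg on the other strand, with which reads could be confused. Of the 3 glycogen and 4 pentose phosphate genes, 0 passed limma and 0 had an unadjusted p under 0.05.

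**Figure D4:**
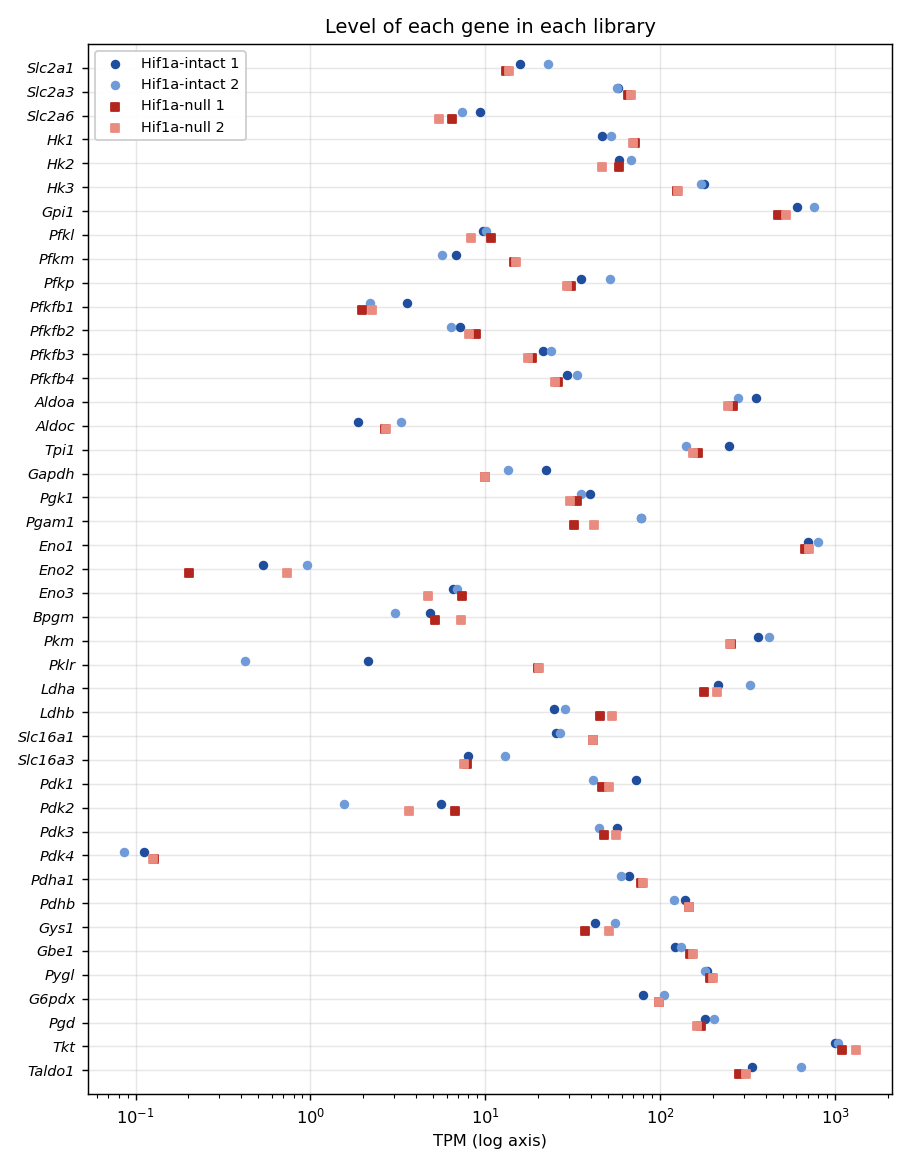
TPM of the 43 genes (x axis, log scale) in each library, with Hif1a-intact libraries as blue circles and Hif1a-null libraries as red squares. Levels ran from Pdk4 at 0.0864 to 0.127 TPM to Tkt at 1001 to 1311 TPM, and Pklr has the widest gap between the groups.

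A wider list of carbohydrate metabolism held 80 further genes of the table, of which 55 were tested. Of these, 4 were called higher and 0 lower, where 5.25% and 2.02% of all genes tested were. The 4 calls are 7.27% of those tested, beside 7.27% of all genes called in either direction. An unadjusted limma p under 0.05 was reached by 6 higher and 8 lower genes, and by 23.2% of all genes tested. The median log2 fold change was -0.11, against -0.06 over all genes tested. Slc2a4, the insulin-regulated carrier GLUT4, read 0.0385 and 0.196 against 5.10 and 3.51 TPM (limma, adjusted p = 0.0136). Pygm, the muscle glycogen phosphorylase, read 0.896 and 0.528 against 3.43 and 2.68 TPM (adjusted p = 0.0372), and Pcx, the pyruvate carboxylase, 0.608 and 0.747 against 2.05 and 1.89 TPM (adjusted p = 0.0422). These 3 were below 1 TPM in the Hif1a-intact pair and entered the test through the other pair, which fixed their direction. Arrdc4, an arrestin-domain gene that glucose induces through the MondoA factor and that limits glucose uptake, read 2.27 and 0.798 against 17.9 and 21.7 TPM (log2 fold change 3.10, standard error 0.33, limma, adjusted p = 0.0187). Only 1 of its Hif1a-intact libraries reached 1 TPM, so Arrdc4 too met the filter with the help of the Hif1a-null pair. Its relative Txnip, under the same control, read 173 and 163 against 126 and 116 TPM, lower in both Hif1a-null libraries, and did not pass (log2 fold change -0.47, adjusted p = 0.141).

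Several further genes of that list were lower in both Hif1a-null libraries without passing. Pdp2, a phosphatase that reactivates pyruvate dehydrogenase, read 6.88 and 6.74 against 4.07 and 4.22 TPM (log2 fold change -0.60, adjusted p = 0.0726), and H6pd, the hexose 6-phosphate dehydrogenase of the endoplasmic reticulum, 18.7 and 16.4 against 9.52 and 11.97 TPM (log2 fold change -0.66, adjusted p = 0.119). Fbp1, a gluconeogenic phosphatase, read 30.8 and 18.04 against 13.8 and 13.4 TPM, Khk, the fructokinase, 31.2 and 25.4 against 21.03 and 13.4 TPM, and Pgm1, a phosphoglucomutase, 23.9 and 29.3 against 17.5 and 17.95 TPM. Slc2a9, a urate and hexose carrier, was higher, at 23.9 and 11.9 against 28.4 and 25.8 TPM (adjusted p = 0.365).

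Markers of several cell types moved with the groups. All 16 erythroid markers were higher in both Hif1a-null libraries, and 15 were called. Their summed TPM was 232 and 165 in the Hif1a-intact and 7656 and 8176 in the Hif1a-null pair, and no marker was at 0 in all libraries. Klf1, the erythroid transcription factor, read 0.938 and 0.858 against 20.4 and 20.1 TPM. Klf1 and several other erythroid markers, most of the called B cell markers, and Gp1ba of the megakaryocyte list passed the filter through the Hif1a-null pair alone, which left a rise as their one possible call. Rag1 and Igll1 were listed at 0 in the Hif1a-intact pair. Granulocyte markers summed to 65312 and 58343 against 109652 and 106686 TPM, with 9 of 17 called higher. The largest part was Chil3, at 30122 and 27349 against 64447 and 62291 TPM, while Mpo read 2859 and 2326 against 1926 and 1950 TPM. B cell markers summed to 22.2 and 18.3 against 241 and 237 TPM, with 9 of the 10 tested called. Megakaryocyte markers summed to 50.9 and 46.5 against 196 and 213 TPM, with 6 of 11 tested called higher.

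Stem and progenitor markers summed to 448 and 433 against 375 and 380 TPM, with 2 of 9 tested called higher and 1 lower. T and NK cell markers summed to 185 and 294 against 204 and 236 TPM. Most of that was Nkg7, at 177 and 284 against 122 and 144 TPM, which was lower without passing. By limma, 7 of 9 tested were called higher. Of these, Cd3g, Tcf7, Ncr1, Gzma and Il2rb passed the filter through the Hif1a-null pair alone and could only be called higher, as could Mrc1 of the monocyte and Slamf1 of the stem cell list. Monocyte and macrophage markers summed to 607 and 596 against 550 and 570 TPM, with 3 of 8 tested called higher and 1 lower. Stroma and muscle markers summed to 21.1 and 17.0 against 33.9 and 43.2 TPM, with 2 of 4 tested called higher and 1 lower. Within that list the muscle genes were low. Myh4 was listed at 0 in all 4 libraries. Acta1 read 0 and 0.0229 against 0.161 and 0.0813 TPM, and Ckm read 2.38 and 0.988 against 0.144 and 0.356 TPM. Pfkm and Pygm, named for muscle, were higher in the pair in which Ckm was lower and Acta1 was higher. Both of these markers were too low to test. Pklr, Pfkm, Hk1 and Bpgm, which red cells use, were higher in the same libraries as the erythroid markers, though Hk1 and Bpgm did not pass. Some other genes were also higher there without passing, such as Slc2a3, Pfkfb2, Ldhb and Slc16a1. Several further glycolytic genes were not higher. Gpi1, Aldoa, Pgk1 and Pgam1 were lower in both Hif1a-null libraries, with only Pgam1 passing, and Pfkl and Tpi1 overlapped. Hk3 was lower in the libraries in which 13 of 17 granulocyte markers were higher. Of the other granulocyte markers, Mpo was lower, and Elane, Ctsg and Camp overlapped. The part of these cell types in the differences was not tested, and in bulk RNA more cells of a type and more transcript per cell cannot be told apart.

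**Figure D5:**
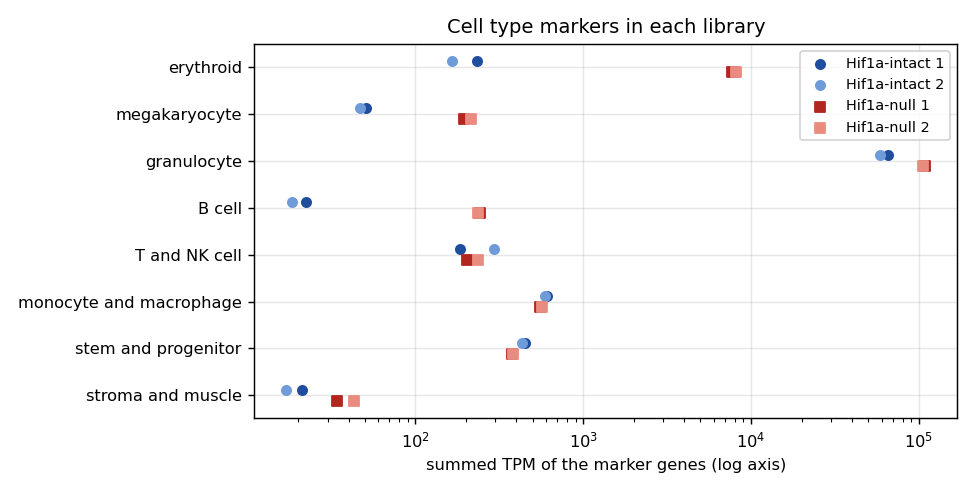
Summed TPM of the marker genes of each cell type (x axis, log scale) in each library, with Hif1a-intact libraries as blue circles and Hif1a-null libraries as red squares. The erythroid sum was 165 to 232 TPM in the Hif1a-intact and 7656 to 8176 TPM in the Hif1a-null libraries, the widest gap among the 8 lists. Nkg7 made up most of the T and NK cell sum, and Chil3 was the largest part of the granulocyte sum.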

How the data were processed

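The authors deposited 1 table of TPM values per Ensembl gene and library. Expression was quantified with kallisto and the build is mm10, per the submitters' processing notes. The kallisto version and transcripts, and any strand option, were "not given in the sources used here". Here the unit was inferred from the values, which sum to 955562 to 963135 per library. TPM is a relative scale: a rise in abundant transcripts lowers the others. kallisto divides reads among similar transcripts by an estimate. Pseudogenes held 15.7% to 20.7% of TPM.

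Symbols and coordinates came from GENCODE M21 (GRCm38), matched for 27458 of 28987 identifiers. Groups followed the titles, 2 libraries each, with no pairing or batch named. Genes reaching 1 TPM in 2 or more libraries were tested with limma 3.58.1 in R 4.3.3 (lmFit, eBayes, two-sided) on log2(TPM + 1), which understates changes of low genes. P-values were adjusted over all genes tested. The method was tested on simulated data. Copies were found with blastn 2.17.0 (95% identity or more, covering 50% or more of the shorter sequence and no fewer than 100 bases), and overlapping genes at the same locus were not summed.

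The genes and lists were chosen with earlier results of these data known. Values per library are given for called genes, genes with non-overlapping groups and a log2 fold change of at least 0.8 in size, and the most abundant isoenzyme of each step; those of other genes were added for completeness. Of the wider list, called genes were named with up to 6 others of largest change, with groups apart and at least 5 TPM in the higher group; Txnip was added beside Arrdc4. Alternatives were other pseudocounts, filters, scalings and variance models, copies summed, and each library left out. Python 3.11.15 with matplotlib 3.10.9 drew the figures.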

Additional observations from a re-analysis of the deposited data

How the results depend on the processing

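No paired analysis was possible because no label pairs the libraries of the 2 groups: the replicate numbers only follow the order of the samples. The count of genes called higher was 2 and became 3 with protein-coding genes only, 1 with no filter and 1 with a pseudocount of 0.1. It did not hold up each time a library was left out. The count called lower was 1 and became 0 with a mean filter of 5 TPM, 0 with no filter, 0 with a pseudocount of 0.5 or 0.1, 0 under quantile or median-ratio scaling, 0 with copies summed, and 0 to 1 when each library was left out. Where it stayed at 1 without a Hif1a-intact library the gene called was Taldo1 or Gapdh and not Pgam1. In the wider list the 4 genes called higher became 6 with protein-coding genes only, 1 with the mean filter and 1 with no filter. The counts called higher and lower there also shifted when single libraries were left out. With Hif1a-null replicate 1 or 2 left out, 19 and 0 of all genes passed. The median log2 fold change stayed below 0, at -0.22 to -0.10 over 14 alternatives. Quantile and median-ratio scaling turned the sign of 1 uncalled gene each, Aldoc and Pfkl. Leaving out 1 library turned 1 to 4 uncalled genes, among them Pdk1 and Tpi1. Why these values moved was not tested. TPM keeps no counts, so no counting error can be given for low genes such as Pklr in the Hif1a-intact libraries.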

Other observations

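Copies of Ldhb and Pgk1, among other enzymes, differed between libraries of the same group more than the genes did. Within the Hif1a-intact pair Pgam1-ps2 also read 57.1 and 129 TPM, where Pgam1 read 77.9 and 77.8 TPM. The Ldhb pseudogene Gm5514 read 1.35 and 14.2 TPM in the Hif1a-intact and 1.91 and 15.4 TPM in the Hif1a-null libraries, so summing it with Ldhb widened the spread, with sums of 26.1 and 42.9 against 47.4 and 68.0 TPM (log2 fold change 0.75, limma, adjusted p = 0.271). Of the Pgk1 copies, Pgk1-rs7 read 48.0, 75.5, 30.9 and 35.9 TPM and Gm5537 read 100.1, 40.9, 108 and 91.2 TPM in the same order of libraries. The Hif1a-intact library that was higher in the former was lower in the latter.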
